A study of Mus musculus with 16 samples.

Results

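The expression of 10 genes of the mouse H2-T region, the block of nonclassical MHC class I genes on chromosome 17, was followed in the duodenal epithelium of mice lacking Ephb4 in the intestinal epithelium. They were chosen from the 2438 genes listed in the authors' deposited table because they lie between positions 36029773 and 36190287 (GRCm38) and were changed there, so their difference between the genotypes is given as a description and carries no test. H2-T23, H2-T22, H2-T10, H2-T3, H2-T-ps, Gm8909, Gm10499, Gm11127, Gm7030 and 2410017I17Rik are the 10 members. RNA was sequenced from 7 libraries of mice with the intestinal epithelial Ephb4 deletion (KO) and from 9 libraries of mice carrying the Ephb4 fl/fl allele without the deletion (flox). All mice were 8 weeks old when a high-fat diet began, and both genotypes ate it for 19 weeks. The sources used here name neither the recombinase line behind the deletion nor the mouse strain, and they do not say that a library is 1 mouse, so the spread between libraries may be partly technical.

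Classical MHC class I molecules carry peptides from inside the cell to CD8 T cells. Nonclassical class I molecules share their fold but vary little between individuals, and several are read by natural killer cells, gamma-delta T cells or the lymphocytes that sit within the gut epithelium. In the small intestine, enterocytes are a main site of the thymus leukemia antigen encoded by H2-T3, which binds CD8 alpha-alpha homodimers on intraepithelial lymphocytes.

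The 160.5 kb span held 23 annotated genes, of which 12 were in the authors' deposited table and 10 were the members. Ephb4 itself, the receptor tyrosine kinase gene that was deleted, had 36.6 ± 21.7 normalised counts in KO libraries and 210.5 ± 94.4 in flox libraries (SD, n = 7 and 9), and no KO library reached the lowest flox library. Reads in the listed genes numbered 3592468 to 4555872 in KO libraries and 4237178 to 5316273 in flox libraries, and the total depth is unknown. All 8 listed enterocyte markers of 18 were lower in KO (44.4%, against 7.81% of all genes the authors tested). Their summed levels were 398676 to 654130 in KO and 612778 to 862265 in flox. All 14 listed of 76 markers of lymphocytes, myeloid cells, stroma and endothelium were higher in KO. They made up 15.4% to 19.4% of the single marker lists, against 6.97% of all genes tested. Their sums were 1099 to 4529 in KO and 865 to 2352 in flox. All 27 listed of 38 acinar pancreas markers were lower in KO (71.1%, against 7.81% of all genes tested). Their sums (leaving out Spink1, which the gut also expresses) were 404 to 1868 in KO and 399 to 152607 in flox. Markers that are not listed have no values here. The part of these markers in the differences below was not tested beyond the values given with them. In bulk RNA, fewer cells of a type and less RNA per cell cannot be told apart.

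Of the 10 members, 9 were lower in KO and H2-T10 was higher. All 10 had an adjusted p under 0.05 in the authors' deposited table, the property that put them there, and the largest was 0.00326 for Gm7030. By that rule 14.8% of the 16488 genes tested were listed, 7.81% as lower and 6.97% as higher. In the authors' deposited table the median log2 fold change was -1.16 over the members and -0.23 over all 2438 listed genes, and 6 members were at -1 or less, as were 2.67% of the listed genes. The first 10 genes of that table by p included 5 members, namely H2-T23, H2-T10, H2-T22, Gm8909 and Gm10499. For 8 members the 7 KO libraries and the 9 flox libraries did not overlap, 7 of them lower and 1 higher in KO. Such separation was found for 7.26% of the listed genes, 5.33% lower and 1.93% higher. In limma, which here serves only for the size of the differences, 54.3% of 2339 listed genes passed an adjusted p of 0.05, a count (1269) that was 518 without KO replicate 7 and between 9 and 15 with a marker sum as a covariate or the replicate number as a block. H2-T-ps and Gm7030 were the members whose libraries overlapped.

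**Figure D1:**
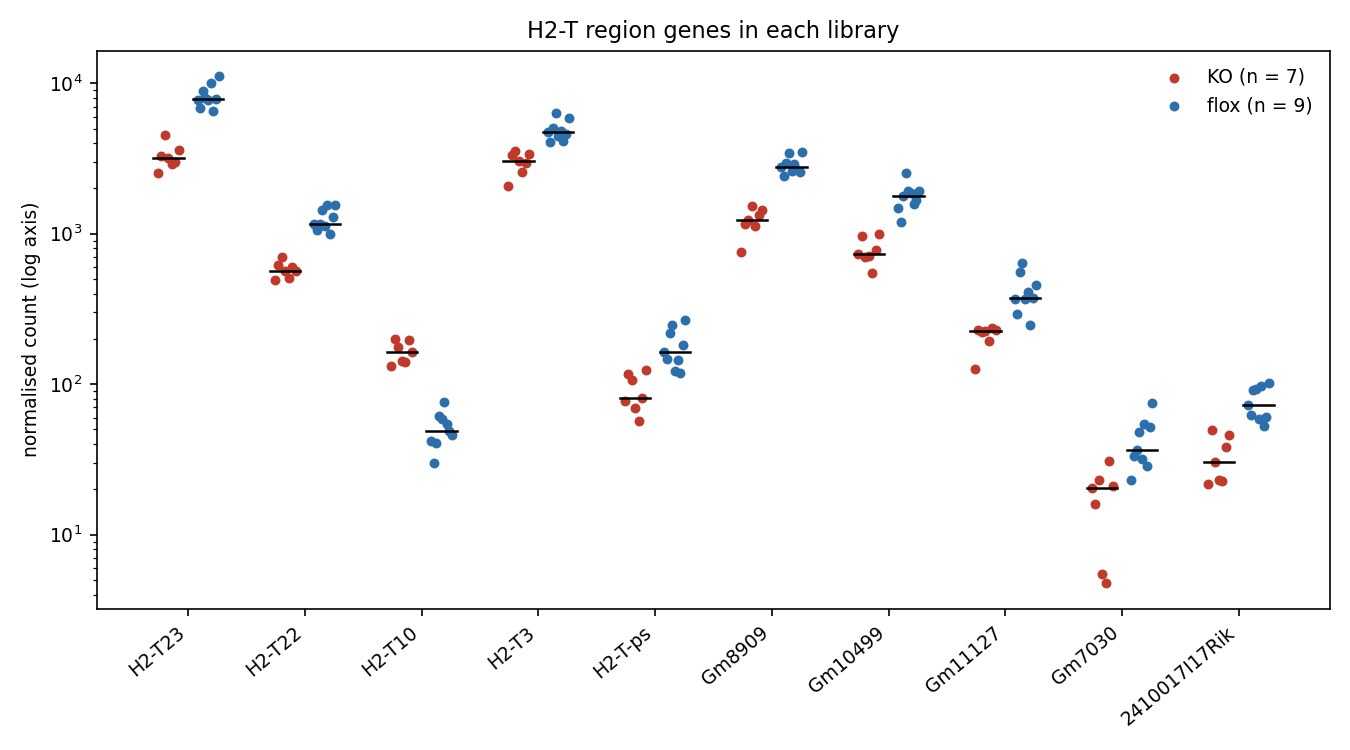
Normalised counts (log axis) of the 10 H2-T members in each library, KO points left of flox points, with bars for the group medians. H2-T10 is the member with KO points above the flox points, and the libraries of H2-T-ps and Gm7030 overlap.

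H2-T23 (ENSMUSG00000067212) encodes the heavy chain of Qa-1, which presents leader peptides of other class I molecules to the CD94/NKG2 receptors of natural killer and CD8 T cells. It lies on the minus strand at chr17:36029773-36032855. Its normalised count ran from 2517 through a median of 3172 to 4510 in KO libraries, and from 6517 through 7846 to 11153 in flox libraries. The highest KO library was below the lowest flox library. The means were 3288 ± 632 in KO and 8300.3 ± 1472 in flox (SD, n = 7 and 9), 2.52-fold lower in KO. The log2 difference was -1.34 ± 0.12 (SE). The gene had rank 2 by p in the authors' deposited table (adjusted p = 3.81e-22). The members were chosen from that table, so this rank is a description.

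H2-T3 (ENSMUSG00000054128), which encodes the thymus leukemia antigen, lies at the far end of the span, on the minus strand at chr17:36185572-36190287. It ran from 2089 through 3029 to 3548 normalised counts in KO libraries and from 4094 through 4738 to 6302 in flox libraries. All KO libraries were below all flox libraries. It averaged 2992 ± 518 in KO and 4896 ± 745 in flox, 1.64-fold lower, with a log2 difference of -0.72 ± 0.11. That was the smallest log2 difference of the 10 members.

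Within a library the ratio of a pair of genes does not depend on the scaling factor. H2-T3 reached 91.4 ± 8.32 counts per 100 of H2-T23 in KO libraries and 59.7 ± 8.39 in flox libraries. The lowest KO ratio was 78.67 and the highest flox ratio was 78.64, so the groups met without overlapping. H2-T22 per 100 of H2-T23 was 17.8 ± 1.69 in KO and 15.3 ± 1.43 in flox, and Gm8909 per 100 of H2-T23 was 37.6 ± 7.42 in KO and 34.9 ± 4.28 in flox. Both of these ratios overlapped between the genotypes.

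H2-T22 and H2-T10 are a near-identical pair whose products, without a bound peptide, are ligands of a subset of gamma-delta T cells. The file calls H2-T22 (ENSMUSG00000056116, minus strand, chr17:36037128-36042747) protein coding and H2-T10 (ENSMUSG00000079491, minus strand, chr17:36115876-36121465) a polymorphic pseudogene. Their annotated coding sequences were identical at 96.3% of 1137 aligned bases and differed at 42. The coding stretch of positions 828 to 947 is shown because 15 of the differing bases fall in it, and only reads over such bases tell these genes apart. Lower case marks shared bases and capitals mark the bases that differ, in the sense direction of the transcript annotation on GRCm38.
H2-T10: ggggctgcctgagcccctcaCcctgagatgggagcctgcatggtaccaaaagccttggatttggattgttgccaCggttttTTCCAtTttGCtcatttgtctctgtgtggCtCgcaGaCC
H2-T22: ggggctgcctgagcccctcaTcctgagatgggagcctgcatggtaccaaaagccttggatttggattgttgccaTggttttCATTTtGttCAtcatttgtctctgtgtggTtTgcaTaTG

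The pair moved in opposite directions. H2-T10 ran from 132 through 164 to 199.7 normalised counts in KO libraries and from 30.1 through 49.0 to 76.4 in flox libraries. Each KO library was above each flox library. Its means were 165 ± 27.6 in KO and 51.0 ± 13.6 in flox, 3.23-fold higher in KO, with a log2 difference of 1.70 ± 0.17. H2-T22 ran from 489 through 568 to 700.1 in KO libraries and from 1001 through 1159 to 1563 in flox libraries, with all KO libraries the lower. It averaged 578 ± 71.0 in KO and 1260 ± 209 in flox, 2.18-fold lower, a log2 difference of -1.12 ± 0.10.

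Of the reads given to either gene, H2-T10 took 22.1% ± 1.89 in KO libraries and 3.90% ± 0.877 in flox libraries (SD, n = 7 and 9). The share ran from 20.02% to 24.8% in KO and from 2.76% to 5.16% in flox. These shares rested on 130 to 223 reads of H2-T10 in KO libraries and 29 to 80 in flox libraries. The lowest lower bound of the 95% exact binomial intervals was 17.2% in KO and the highest upper bound was 6.64% in flox, which cover counting error only. The 2 genes together had 742 ± 92.8 normalised counts in KO and 1311 ± 217 in flox, without overlap, so the pair as a whole was lower in KO.

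**Figure D2:**
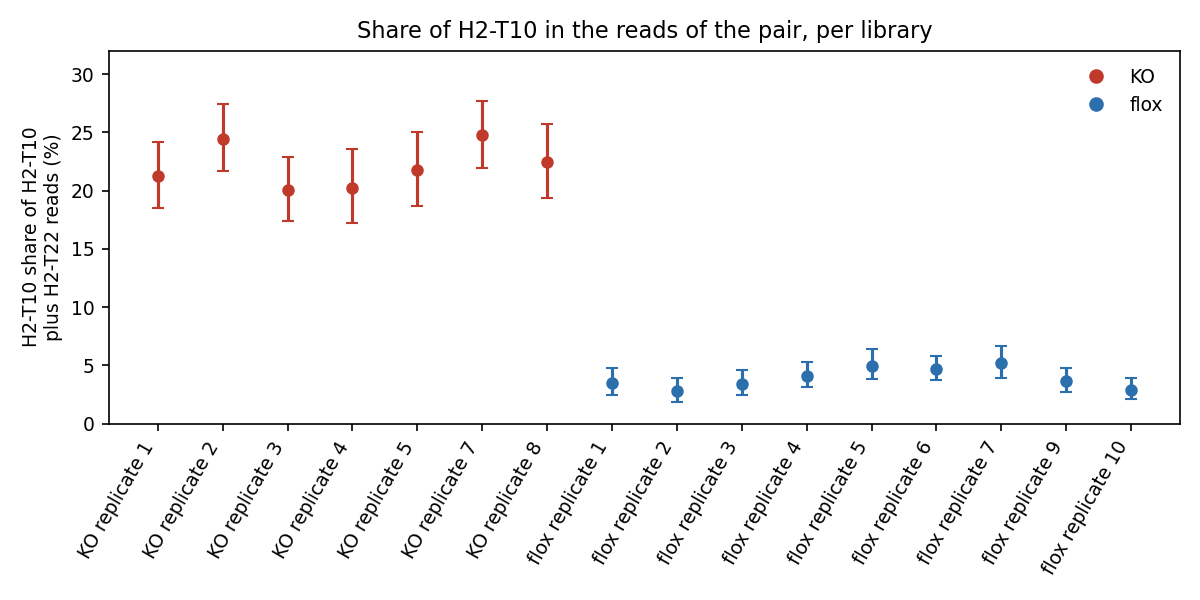
Share of the reads of H2-T10 and H2-T22 that went to H2-T10 (percent), one point per library with its 95% exact binomial interval, KO left of flox. KO libraries sit between 20.02% and 24.8%, all above the flox libraries, whose highest share is 5.16%.

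Counting can move reads between genes that share sequence. Of the distinct 50-base windows in its transcripts, H2-T22 shared 53.5% with another annotated gene and H2-T10 shared 50.4%, and of the 100-base windows 31.5% and 28.1%. The levels of both are uncertain to that extent, since neither the read length nor the handling of multiply aligned reads is known. With each other, H2-T22 shared 31.2% and H2-T10 31.7% of their 50-base windows, but 6.92% and 7.06% of their 100-base windows. At 100 bases H2-T22 shared most with A930015D03Rik, and H2-T10 shared most with BC023719. H2-T3 shared 0.926% of its 50-base windows and none of its 100-base windows, and H2-T23 shared 14.5% and 3.15%. The H2-T3 and H2-T23 values therefore rest mostly on sequence that no other annotated gene holds. These windows were compared within the reference annotation only, so they do not cover sequence that differs between MHC haplotypes. Which MHC haplotype the mice carried is not given either, nor whether KO and flox mice carried the same one. Its part in the counts of the members, H2-T23 and H2-T3 included, was not tested.

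Gm8909 (ENSMUSG00000073402), a protein coding class I gene on the minus strand at chr17:36164443-36168537, ran from 754 through 1224 to 1524 normalised counts in KO libraries and from 2416 through 2785 to 3492 in flox libraries, with no overlap. It averaged 1222 ± 250.4 in KO and 2865 ± 375 in flox, 2.34-fold lower, with a log2 difference of -1.25 ± 0.12. Gm20478, listed as an antisense gene that overlaps it, was also lower in KO, at 23.1 ± 5.66 normalised counts in KO and 39.8 ± 8.56 in flox. The library kit does not mark strand, so reads of Gm8909 and Gm20478 cannot be told apart where they overlap.

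Gm10499 (ENSMUSG00000073403), a transcribed pseudogene on the minus strand at chr17:36141758-36145923, ran from 550.1 through 729.9 to 996 normalised counts in KO libraries and from 1204 through 1768 to 2523 in flox libraries. All of its KO libraries lay below all flox libraries. It averaged 776 ± 156 in KO and 1773 ± 366 in flox, 2.29-fold lower, a log2 difference of -1.19 ± 0.14. The long noncoding gene 2410017I17Rik (ENSMUSG00000038311) lies on the plus strand at chr17:36145018-36163176 and overlaps the start of Gm10499. It had 33.1 ± 11.6 normalised counts in KO and 76.6 ± 18.9 in flox, 2.32-fold lower, with 21.7 to 49.5 in KO and 52.6 to 101 in flox. It is the one member on the plus strand, and its libraries did not overlap between the genotypes. Since the kit does not mark strand, reads of 2410017I17Rik and Gm10499 cannot be told apart where they overlap. Of the 50-base windows of 2410017I17Rik, 5.34% also occur in Gm10499.

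Gm11127 and Gm7030 are a second near-identical pair of protein coding class I genes, identical at 98.1% of 855 aligned coding bases, with 16 differences. Gm11127 (ENSMUSG00000079492, minus strand, chr17:36055816-36058371) ran from 125 through 226 to 237 normalised counts in KO libraries and from 249 through 373 to 639 in flox libraries. The genotypes did not overlap, although the highest KO value came close to the lowest flox value. It averaged 208 ± 39.0 in KO and 413 ± 123 in flox, 1.98-fold lower, a log2 difference of -0.96 ± 0.18. Gm7030 (ENSMUSG00000092243, minus strand, chr17:36109719-36129425) had 17.4 ± 9.52 in KO and 42.5 ± 16.2 in flox, 2.45-fold lower, and it rested on 5 to 35 reads in KO libraries and 21 to 68 in flox libraries. Its 4.76 to 31.0 normalised counts in KO overlapped with 23.2 to 74.8 in flox. Of the reads of the pair, Gm7030 took 7.82% ± 4.39 in KO and 9.51% ± 2.90 in flox, and these shares overlapped, unlike those of H2-T10 and H2-T22. Gm11127 shared 78.3% of its 50-base windows with another gene and Gm7030 shared 75.6%, so both levels are uncertain.

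H2-T-ps (ENSMUSG00000073405), an unprocessed pseudogene on the minus strand at chr17:36109234-36111658, ran from 57.1 through 81.5 to 124 normalised counts in KO libraries and from 119 through 164 to 268 in flox libraries. The highest KO libraries overlapped with the lowest flox libraries. It averaged 90.3 ± 25.4 in KO and 179 ± 54.5 in flox, 1.99-fold lower. The annotated model of Gm7030 overlaps it and contains H2-T10.

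Divided by exon length, the members ranked alike in the genotypes except at a few places. H2-T23 was highest in both, with 1138 ± 219 normalised counts per kb in KO and 2873 ± 510 in flox. In KO, H2-T3 followed with 1097 ± 190 and Gm8909 with 792 ± 162 per kb, and the difference between H2-T23 and H2-T3 was within their spread. In flox, Gm8909 had 1856 ± 243 and H2-T3 1795 ± 273 per kb, which did not differ beyond their spread. Gm10499 came next in each group, with 440.2 ± 88.3 per kb in KO and 1006 ± 208 in flox. H2-T22 and Gm11127, next in order, had 169 ± 20.8 and 155 ± 29.0 per kb in KO, and 369 ± 61.3 and 307 ± 91.3 in flox, again within their spread. H2-T10 was the lowest member in flox, at 14.9 ± 3.98 per kb, but stood above Gm7030 and 2410017I17Rik in KO, at 48.1 ± 8.07 per kb. Gm7030 had 18.7 ± 10.3 per kb in KO and 45.8 ± 17.5 in flox, and 2410017I17Rik had 13.1 ± 4.60 in KO and 30.4 ± 7.52 in flox.

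The classical class I genes, which present peptides to most CD8 T cells, were listed as lower in KO too. H2-K1 had 37908 ± 7040 normalised counts in KO and 48974 ± 6472 in flox, and H2-D1 had 17766 ± 2592 in KO and 22975 ± 4047 in flox. The authors' deposited table gives -0.37 on the log2 scale for both. Of a list of 27 class I genes outside the 10 members, which is not complete, 4 were listed (14.8%, the same as the 14.8% of all genes tested). None of these 4 had libraries without overlap. All 4 were lower, which is 14.8% of the list, against 7.81% of all genes tested. From the same list, H2-Q10 and Fcgrt were listed too. H2-Q10 encodes a secreted class I molecule of mouse liver, and Fcgrt encodes the neonatal Fc receptor. They stood at -0.67 and -0.38 on the log2 scale in the authors' deposited table. H2-Q3, a class I gene left out of that list, stood at -0.70 there. Gm8810, a class I pseudogene also left out of it, was higher in KO, and its libraries did not overlap. Within libraries, H2-T23 reached 8.73 ± 0.984 counts per 100 of H2-K1 in KO and 16.9 ± 1.66 in flox. The highest KO ratio was 9.97 and the lowest flox ratio 15.3, so H2-T23 was lower in KO relative to H2-K1 as well. H2-D1 per 100 of H2-K1 was 47.4 ± 4.61 in KO and 46.8 ± 3.15 in flox, which overlapped.

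Class I molecules need peptide-generating proteasome subunits, transporters and chaperones, and their genes are switched on by NLRC5 with the RFX and NF-Y factors and by interferons. Of 24 such loading and transcription genes, 6 were listed, 5 lower (20.8% of the list, against 7.81% of all genes tested) and 1 higher, with -0.30 as their median in the authors' deposited table. Psmb8, the immunoproteasome subunit, was lowest at -0.52, with 1492 ± 298 normalised counts in KO and 2132 ± 543 in flox. Tapbp and Tapbpl, which encode the peptide editors tapasin and TAPBPR, stood at -0.31 and -0.29, and the NF-Y subunit genes Nfya and Nfyc at -0.35 and -0.24. Rfx5 was the higher one, at 122 ± 14.9 normalised counts in KO and 89.4 ± 19.0 in flox. Of 40 interferon response genes 1 was listed (2.5%, against 14.8% of all genes tested), Gbp4, higher in KO by 0.61 on the log2 scale in the authors' deposited table. Of 12 genes of lymphocyte and myeloid receptors, among them those that bind nonclassical class I molecules, 1 was listed (8.33%), Lilrb4a, an inhibitory receptor gene of myeloid cells, higher at 1.19, and of 11 class II genes none was listed. A gene that is not listed had no adjusted p under 0.05 in that table or was not tested, so these lists say nothing on the level of their other members.

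The promoters of H2-T23, H2-T22 and H2-T3 are shown because these genes are the best described members and share a direction. Each is the 250 bases before the RefSeq start on GRCm38.p6, minus strand, written 5′ to 3′, with capitals for the core of the interferon-stimulated response element (GAAA, any 2 bases, GAAA) or CCAAT (the NF-Y motif) on either strand. They lie at chr17:36032702-36032951, chr17:36042743-36042992 and chr17:36190152-36190401.
H2-T23: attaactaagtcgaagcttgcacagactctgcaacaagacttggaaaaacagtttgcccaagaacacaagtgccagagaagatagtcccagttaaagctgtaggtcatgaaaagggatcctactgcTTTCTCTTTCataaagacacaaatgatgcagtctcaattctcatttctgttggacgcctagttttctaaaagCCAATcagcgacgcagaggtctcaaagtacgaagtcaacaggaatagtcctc
H2-T22: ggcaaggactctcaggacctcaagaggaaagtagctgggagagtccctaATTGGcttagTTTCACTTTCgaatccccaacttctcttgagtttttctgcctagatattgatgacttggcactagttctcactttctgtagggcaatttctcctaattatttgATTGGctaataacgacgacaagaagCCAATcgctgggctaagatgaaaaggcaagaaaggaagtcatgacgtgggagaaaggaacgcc
H2-T3: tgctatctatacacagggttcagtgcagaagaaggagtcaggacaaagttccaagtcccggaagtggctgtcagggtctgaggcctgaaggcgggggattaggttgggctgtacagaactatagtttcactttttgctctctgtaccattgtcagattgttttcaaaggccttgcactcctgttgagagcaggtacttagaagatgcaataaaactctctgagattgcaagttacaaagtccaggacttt

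RefSeq gave a window from 250 bases before to 50 after the start for 9 members, all but H2-T10. The interferon-stimulated response element core was in 4 of the 9, those of H2-T23, H2-T22, Gm11127 and Gm7030, and in 3.44% of 32851 windows in all. CCAAT was in 7 of the 9, all but H2-T3 and 2410017I17Rik, and in 37.4% of all windows. Some of these windows are largely copies of each other, so the members are not independent cases. Such pairs are Gm11127 with Gm7030, Gm10499 with Gm8909, and H2-T23 with H2-T-ps. The palindromic cyclic AMP element TGACGTCA was in 0 of 9 and in 1.79% of all windows, and the one form of the NF-kappa-B site searched was in 0 of 9 and in 0.107%. Both strands were searched, matches of different motifs may overlap, and a match describes the letters alone.

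Within 500 kb of the span, 7 other genes were listed, 5 lower and 2 higher, with -0.45 as their median in the authors' deposited table. Ddr1, a collagen receptor tyrosine kinase gene, was the lower one whose libraries did not overlap, at 1322 ± 137 normalised counts in KO and 2104 ± 351 in flox. Gnl1, Flot1 and Ppp1r10 stood at -0.46, -0.45 and -0.32 in the authors' deposited table, and Gm20478 at -0.79. Tubb5, a tubulin gene, was higher at 0.78. Gm8810, a class I pseudogene inside the span, was the second higher gene, with 2 to 26 reads in KO libraries and none in flox libraries but 1 read in flox replicate 7. Within 2 Mb, 25 other genes were listed and 23 of them were lower, with -0.87 as the lowest log2 fold change. The part of a haplotype difference between KO and flox mice in the levels of Gm8810 and these neighbours was not tested. On chromosome 17 as a whole 112 of 163 listed genes were lower (68.7%), and without the members 103 of 153 (67.3%), against 52.8% of all listed genes.

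**Figure D3:**
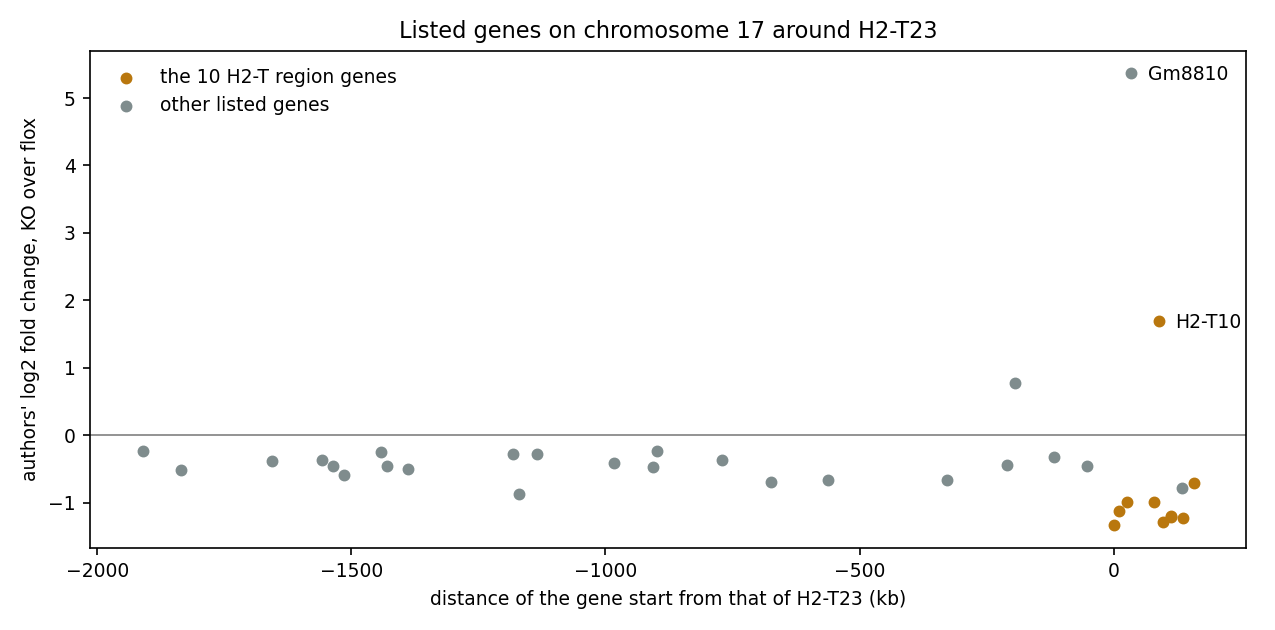
Log2 fold change (KO over flox, the authors' deposited table) of listed genes against the distance of the gene start from that of H2-T23 on chromosome 17, in kb, with the 10 members and other genes in separate colours. H2-T10 is the member above 0, the 25 other genes lie at -0.87 or higher, and the value of Gm8810 rests on 1 flox read and sets no fold.

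H2-T23 was also followed from library to library within each genotype, where the deleted allele is constant. Of 24 relations, 12 in each genotype, 8 had an adjusted p under 0.05 (exact permutation test of Pearson r, two-sided, Benjamini-Hochberg over the 24). The p-values printed below are those of r. By r, 3 passed in KO and 5 in flox, and by Spearman rho 1 and 6. By rho, H2-T22 and Psmb8 in KO and the acinar sum in flox did not pass, while H2-T3 and Gm11127 in flox did. All 9 other members had a positive r in both genotypes. For comparison, the median r over 1947 other listed genes, both genotypes together, was 0.17, so positive was the more frequent sign there. How many of those genes had a positive r in each genotype was not counted. These libraries share scaling and composition, which are in every such relation. H2-T22 followed H2-T23 with r = 0.88 in KO (rho = 0.82, exact permutation p = 0.0141, adjusted 0.0479, n = 7) and r = 0.84 in flox (rho = 0.92, exact permutation p = 0.00327, adjusted 0.0392, n = 9). Without the 2 libraries farthest from the median of H2-T23, r was 0.40 in KO and 0.62 in flox, so part of the relation rests on those libraries. H2-T3 gave r = 0.87 in KO (rho = 1.00, exact permutation p = 0.0117, adjusted 0.0468; r = 0.92 without the 2 libraries). In flox it gave r = 0.65 (rho = 0.82, exact permutation p = 0.0554, adjusted 0.133; r = 0.66 without the 2 libraries). H2-T10, the member that was higher in KO, gave r = 0.47 in KO (rho = 0.61, exact permutation p = 0.301, adjusted 0.401) and r = 0.30 in flox (rho = 0.25, exact permutation p = 0.437, adjusted 0.499). Those values did not pass the threshold.

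**Figure D4:**
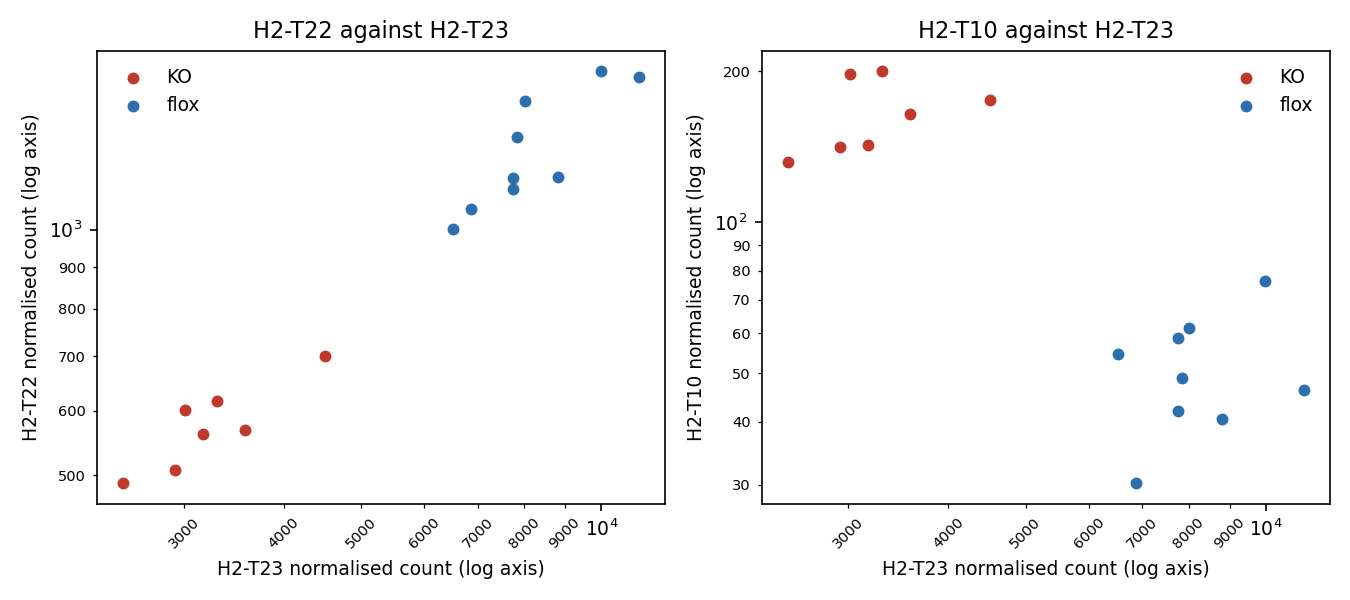
Normalised counts of H2-T22 and of H2-T10 against H2-T23 in each library, KO and flox in separate colours. H2-T22 rises with H2-T23 within each genotype, and H2-T10 lies higher in the KO libraries while H2-T23 is lower there. Both axes are log axes.

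Among other relations, 2410017I17Rik with H2-T23 in flox gave r = 0.85 (rho = 0.85, exact permutation p = 0.000628, adjusted 0.0151, n = 9; r = 0.77 without the 2 libraries). Gm7030 in flox gave r = 0.76 (rho = 0.85, exact permutation p = 0.016, adjusted 0.0479; r = 0.36 without the 2 libraries). In KO neither passed, with r = 0.40 for 2410017I17Rik (exact permutation p = 0.400, adjusted 0.480) and r = 0.23 for Gm7030 (exact permutation p = 0.610, adjusted 0.636). Psmb8 followed H2-T23 with r = 0.87 in KO (rho = 0.79, exact permutation p = 0.00992, adjusted 0.0468) and r = 0.81 in flox (rho = 0.87, exact permutation p = 0.0082, adjusted 0.0468), and with r = 0.66 and 0.64 without the 2 libraries. Markers of other cell types were set beside H2-T23 in the same way. The non-epithelial marker sum gave r = -0.70 in KO (rho = -0.71, exact permutation p = 0.076, adjusted 0.166) and r = -0.22 in flox (rho = -0.07, exact permutation p = 0.565, adjusted 0.616). The acinar marker sum was used here with Spink1, and ran from 4977 to 7947 in KO and from 5653 to 163943 in flox. It gave r = 0.79 in flox (rho = 0.75, exact permutation p = 0.011, adjusted 0.0468), which was 0.29 without the 2 libraries. In KO, where the sum without Spink1 was only 404 to 1868, it gave r = 0.44 (rho = 0.18, exact permutation p = 0.334, adjusted 0.421). In the 5 flox libraries with raised acinar transcripts H2-T23 averaged 8701 ± 1845 normalised counts, against 7799 ± 799 in the other 4 flox libraries.

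By the likeness of within-genotype deviations over all 16 libraries, the listed non-member genes nearest to H2-T23 among 1947 were H2-D1 (r = 0.93), Tob2 (0.89), Grina (0.85), Cd82 (0.83) and Tex261 (0.83). Of the members, H2-T22 had r = 0.84, H2-T3 0.76 and H2-T10 0.34 by the same measure. The median over all was 0.17.

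How far the size of the differences depended on scaling, on the acinar and non-epithelial marker sums and on the acinar-rich flox libraries is shown member by member. Scaled to H2-K1 plus H2-D1, the H2-T23 difference was -0.96 and that of H2-T3 was -0.34, the smallest difference of that member in any setting tried.

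**Figure D5:**
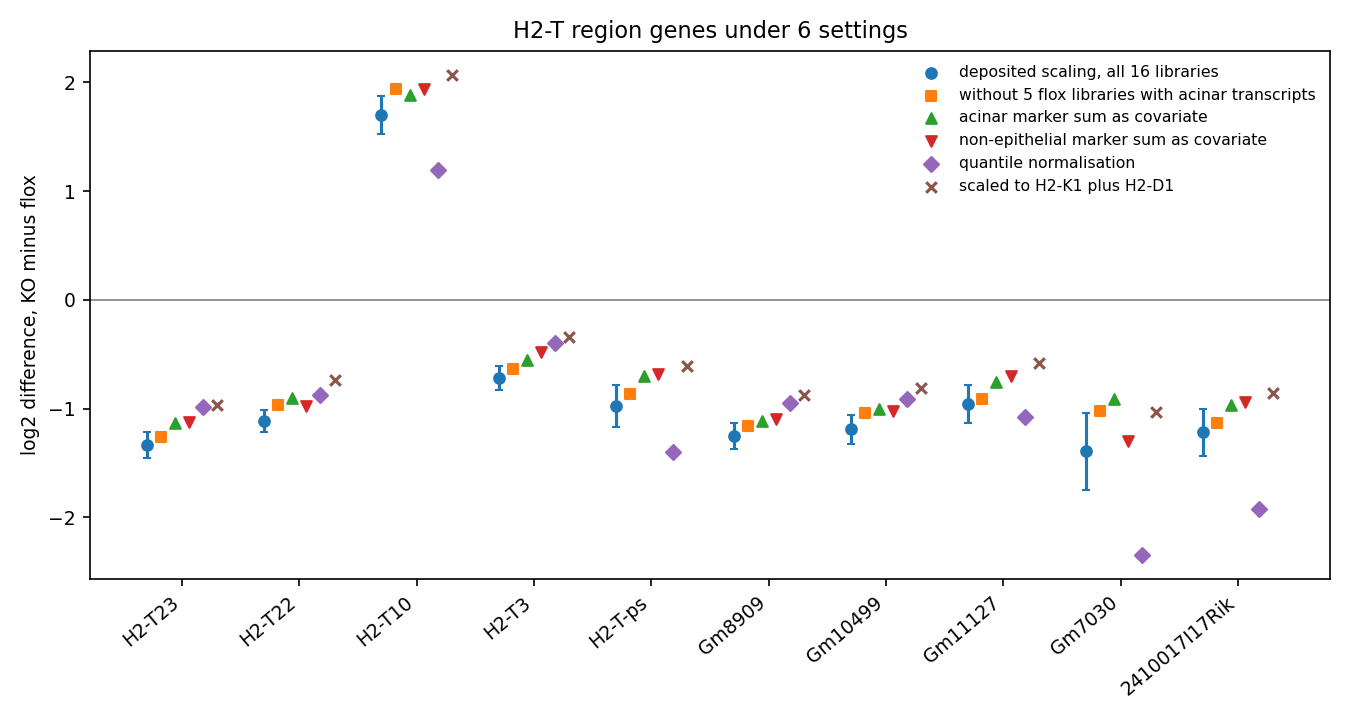
Log2 difference (KO minus flox) of each member under 6 settings: the deposited scaling with all 16 libraries (bars are SE), without 5 flox libraries with acinar transcripts, with the acinar (Spink1 included) or the non-epithelial marker sum as a covariate, with quantile normalisation, and scaled to H2-K1 plus H2-D1. Under all 6, the values of H2-T10 lie above 0 and those of the other 9 members below 0.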

How the data were processed

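Poly-A RNA of duodenal epithelium was converted to libraries with a kit that does not mark strand, per the labels' protocols. The submitters' processing notes name DESeq2 1.20.0, featureCounts 1.5.0-p3, HISAT2 2.0.5 and the build GRCm38, and no counting settings are known. The authors deposited 1 table of 2438 genes with counts divided by size factors (a signal, here called normalised count), a log2 fold change, and p-values adjusted over 16488 genes. The authors' table also gives raw p-values, gene positions, lengths and biotypes as deposited. The listed genes all have an adjusted p under 0.05 (largest 0.0497), so no gene that missed that threshold was analysed here.

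Differences were fitted with limma 3.58.1 (trend, robust) on log2(normalised count + 1) over 2339 listed genes (mean of 10 or more), with Benjamini-Hochberg adjustment over 16488. The count added before the log shrinks the log2 difference of low genes. For Gm7030 it was -1.43 with 0.5 added, -1.39 with 1 and -1.16 with 5. The authors' deposited table gives -1.28 for that gene. Normalised counts were whole multiples of 1 read in all libraries within a tolerance of 0.0001 of a read, which gave back whole reads. A stricter test of that step did not pass for KO replicates 1 and 3. edgeR 4.0.16 and DESeq2 1.42.0 were run on those reads as alternatives. Correlations used exact permutation tests (scipy 1.17.1), binomial intervals the exact Clopper-Pearson method, and shared windows and coding identity GENCODE M21 transcripts (biopython 1.88). Promoters came from RefSeq, GRCm38.p6. Coordinates of all 10 members were the same in the deposited table and GENCODE M21. The scripts were tested on simulated data.

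The genes named are the 10 members, Ephb4, the listed genes of the class I, loading, interferon, receptor and class II lists, the listed genes within 500 kb, and the 5 listed genes nearest to H2-T23 by likeness (mean of at least 50). H2-Q3 is named as well, as a class I gene outside those lists. The members and lists were chosen with earlier results of these data known. No pair of libraries was a duplicate: chi-square per degree of freedom was at least 16.8 for every pair within a genotype. Alternatives covered scaling, filters, pseudocount, covariates, count models and leaving out libraries.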

Additional observations from a re-analysis of the deposited data

Results flagged for a closer look

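In groups of 7 or 9 libraries, 7 of 64 values by gene and genotype had a library far from the others by Dixon's test, which chance alone flags in about 1 in 20 groups. Gm11127 in KO replicate 1 was low, at 125 normalised counts, with the next KO library at 193. It is the member whose value stood out, and its KO mean includes that library. The other 6 were genes beside the members. Ephb4 was high in KO replicate 1, at 84.7 normalised counts against 37.3 in the next KO library. Tubb5 was also high in KO replicate 1, at 1713 against 970.1. In KO replicate 8, H2-Q10 was high at 1704 against 1065 and Ddr1 was high at 1606 against 1354. Fcgrt was high in flox replicate 4, at 5834 against 3849. Gm8810 was at 0.956 in flox replicate 7 and at 0 in the other flox libraries.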

How the results depend on the processing

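H2-T10 stayed higher and the other 9 members lower in KO under all 31 alternatives, a direction that the choice of members fixes. The median log2 difference of the members, -1.15, ran from -1.20 to -0.78, and -0.78 came from scaling to H2-K1 and H2-D1, which moved the median of all genes by 0.37 (TMM by 0.14, quantile by 0.25). Gm7030, with few reads, ranged from -2.34 to -0.91, and H2-T10 from 1.19 to 2.07. The number of listed genes passing limma was 1269 (820 lower, 449 higher), 357 with quantile scaling (165 lower, 192 higher), 912 with TMM (189 lower, 723 higher), 872 when scaled to H2-K1 and H2-D1 (14 lower, 858 higher), 2112 with DESeq2, and 374 with edgeR without KO replicates 1 and 3. Leaving out 1 library gave 518 to 1458: 645 without KO replicate 1, 622 without KO 5, 518 without KO 7, 615 without flox 3, 838 without flox 4 and 646 without flox 10, the library over the acinar threshold set first. It was 11 without the 5 flox libraries with raised acinar transcripts (chosen after seeing the data), 9 with the non-epithelial sum as a covariate and 15 with the acinar sum, Spink1 included. The cause was not tested. With the replicate number as a block it was 9. Of the 10 members, 10 were in the main count, 8 with the H2-K1 and H2-D1 scaling, 4 with the block, and 5 without the 5 flox libraries or with either covariate. Same-numbered libraries did not deviate together (r of -0.43 to 0.37 over 6 numbers). This check covers listed genes only and cannot tell whether the numbers pair the libraries. With the 2 farthest libraries left out of each genotype, 0 of 24 relations with H2-T23 passed instead of 8 (exact permutation, 3 at an unadjusted p under 0.05, Spearman 0). The smallest p that 5 KO libraries allow is 0.0167, so the fewer calls follow in part from the number left, and some r were higher (Gm10499 in KO 0.87, against 0.22 with all libraries). The r with the acinar sum (Spink1 included) in KO turned from 0.44 to -0.11. Without division by length, 6 of the 10 members kept their rank in the order of levels in KO and 5 in flox, 4 of them in both. Only listed genes were available to the fits, and Gm7030 and 2410017I17Rik are limited by depth.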
